A study of Jaltomata procumbens and Jaltomata herrerae with 23 samples.

Results

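In the nectaries of 2 nightshades, Jaltomata herrerae and J. procumbens, 28 of 13170 loci stood high before nectar secretion and low at both later stages in both species. They included STM, a homeobox factor of shoot meristems, EPFL6, a secreted signalling peptide, SPX1 and G3Pp1, genes of the phosphate starvation response, ADC1, an enzyme of polyamine synthesis, and FAD5, a plastid fatty acid desaturase. A locus was a member when its mean log2(scaled TPM + 1) before secretion was at least 1 above both the secretory and the post-secretory mean in each species. Its mean scaled TPM before secretion also had to reach 10 in each species. The nectary values themselves thus chose the members, and the differences among nectary stages that the rule used are given without a test.

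The libraries came from whole nectaries dissected by hand, taken pre-secretory (24 to 48 hours before anthesis), secretory (full anthesis, 3 to 6 hours after dawn) or post-secretory (after the petals had dropped), and from fully expanded leaves. No genotype, strain or agent other than the species is named, and plants of both species shared 1 growth facility. The rule used 20 of 23 libraries. In J. herrerae these were 3 pre-secretory (A to C), 3 secretory (A to C), 3 post-secretory (A to C) and 2 leaf libraries (A and B). In J. procumbens they were 3 pre-secretory (B to D), 2 secretory (A and B), 2 post-secretory (B and C) and 2 leaf libraries (B and C). Values are TPM, a transcript abundance corrected for length, for Arabidopsis loci, with 3 very abundant loci removed and each library then scaled to a total of 1000000, called scaled TPM here. Levels of different loci are set side by side below, but how transcripts were summed to loci is not known, and such rankings may depend on it.

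A nectary is a small gland that grows and differentiates while the flower is still closed, and exports sugars and water as nectar once the flower opens. In Arabidopsis, meristem factors such as STM hold cells in a dividing, undifferentiated state, and peptides of the EPF family tune growth and cell patterning through receptor kinases. Plants low in phosphate switch on a common set of genes that take up, recover and sense phosphate. The gene roles given below are those of the Arabidopsis genes.

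Libraries held 11331 to 12449 loci at 1 TPM or more, and the 3 removed loci made up 0.809% to 48.8% of the listed TPM. Their share was 10.9% to 48.8% in J. herrerae nectaries and 1.08% to 6.48% in those of J. procumbens. Removal and scaling thus raised the nectary values of J. herrerae more than those of J. procumbens. The labelled tissues held for the 20 libraries: RBCS1A, a Rubisco subunit and leaf marker, was at 46000 to 133000 scaled TPM in leaves and at 14 to 9580 in nectaries, where J. herrerae pre-secretory C was highest. CRC, a nectary regulator, was at 225 to 8390 in nectaries and at 6.9 to 196 in leaves. J. procumbens pre-secretory A went against its label, with RBCS1A at 53600 and CRC at 3.22, and J. procumbens leaf A did too, with RBCS1A at 89.7 and CRC at 1580. J. procumbens post-secretory A correlated more with the secretory libraries (Pearson r 0.974 over loci) than with its own group (0.822). J. procumbens pre-secretory B, C and D gave the same order, at 0.875, 0.953 and 0.818 with the secretory libraries. With their own group, in which pre-secretory A was counted, they were at 0.79, 0.782 and 0.771. Pre-secretory A correlated with these 3 at only 0.453 on average, which lowered those values. The order thus does not show that B, C and D were closer to the secretory libraries than to each other. Post-secretory A and the 2 libraries against their labels were outside the rule, and the members' values in them are given at the end. The depth of each library is unknown, because TPM does not keep it. Nothing in the labels says that libraries came from separate plants, so p-values measure the spread between these samples, which may be technical.

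The post-secretory differences kept the fewest loci. Of 13167 loci, 18.9% were lower by at least 1 in the secretory stage in J. herrerae and 18.4% in J. procumbens. For the post-secretory stage the shares were 5.96% in J. herrerae and 8.33% in J. procumbens. Both differences were met by 186 loci in J. herrerae and by 582 in J. procumbens, all 4 by 38 loci, and the level before secretion by 28 of those. In J. herrerae, every pre-secretory library exceeded every later nectary library for 25 of the 28 members, against 7.29% of all loci. In J. procumbens this held for 26 members, against 8.57% of all loci, and in both species for 23. Since the rule used these values, the counts only describe the members. The exceptions were AT4G35750, AT2G28660 and TPPH in J. herrerae and ADC1 and AT5G21105 in J. procumbens. The petal and trichome markers, of which 2 were in the table, moved with the members in most libraries when summed. Only 1 of the 2, the petal factor AP3, was higher before secretion in all 4 differences, with a smallest of 0.69. The 2 markers summed to 147 to 193 scaled TPM before secretion in J. herrerae, 73.9 to 237 during it, 53.7 to 82.6 after it and 6.17 to 12.1 in leaves. In J. procumbens the sums were 138 to 201 before secretion, 88.4 and 99.4 during it, 75.1 and 107 after it, and 7.08 and 13.8 in leaves. Among the 20 libraries, secretory C of J. herrerae, at 237, was the only later nectary library to reach a pre-secretory sum of its species, and neither marker was at 0 in a nectary library. In the other tissue lists the highest sum after secretion was above the highest before it. For vascular markers these were 136 and 64.2 in J. herrerae, and 115 and 45.4 in J. procumbens. For ovule and carpel markers they were 255 and 252, and 91.2 and 61.9. For tapetum, pollen and anther markers they were 87.3 and 74.6, and 149 and 68.1. The sums before and after secretion did not overlap for vascular markers in either species. For tapetum, pollen and anther markers they overlapped in J. procumbens only, and for ovule and carpel markers in both species. During secretion the vascular sums of J. herrerae, at 31.5 to 53.9, lay below the 54.1 to 64.2 before it. The part of these markers in the members' pattern was not tested, and in whole nectaries fewer cells of a type cannot be told apart from less RNA per cell.

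Members closest to the threshold of 1 were CPK29, with a smallest difference of 1.01, EPFL6, with 1.01, and AT3G01516, with 1.03. Just outside were SWEET7, a sugar transporter, with 0.99, AT5G48580, with 0.99, and AT3G45780, with 0.98. On the level step, PHO2 was closest inside at 10.6 scaled TPM, and AT4G12490 was closest outside at 8.86. The largest values of the smallest difference belonged to G3Pp1 at 2.17 and ALN at 2.10. These were the only members left when the difference was set to at least 2, and 145 loci passed at 0.5.

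**Figure D1:**
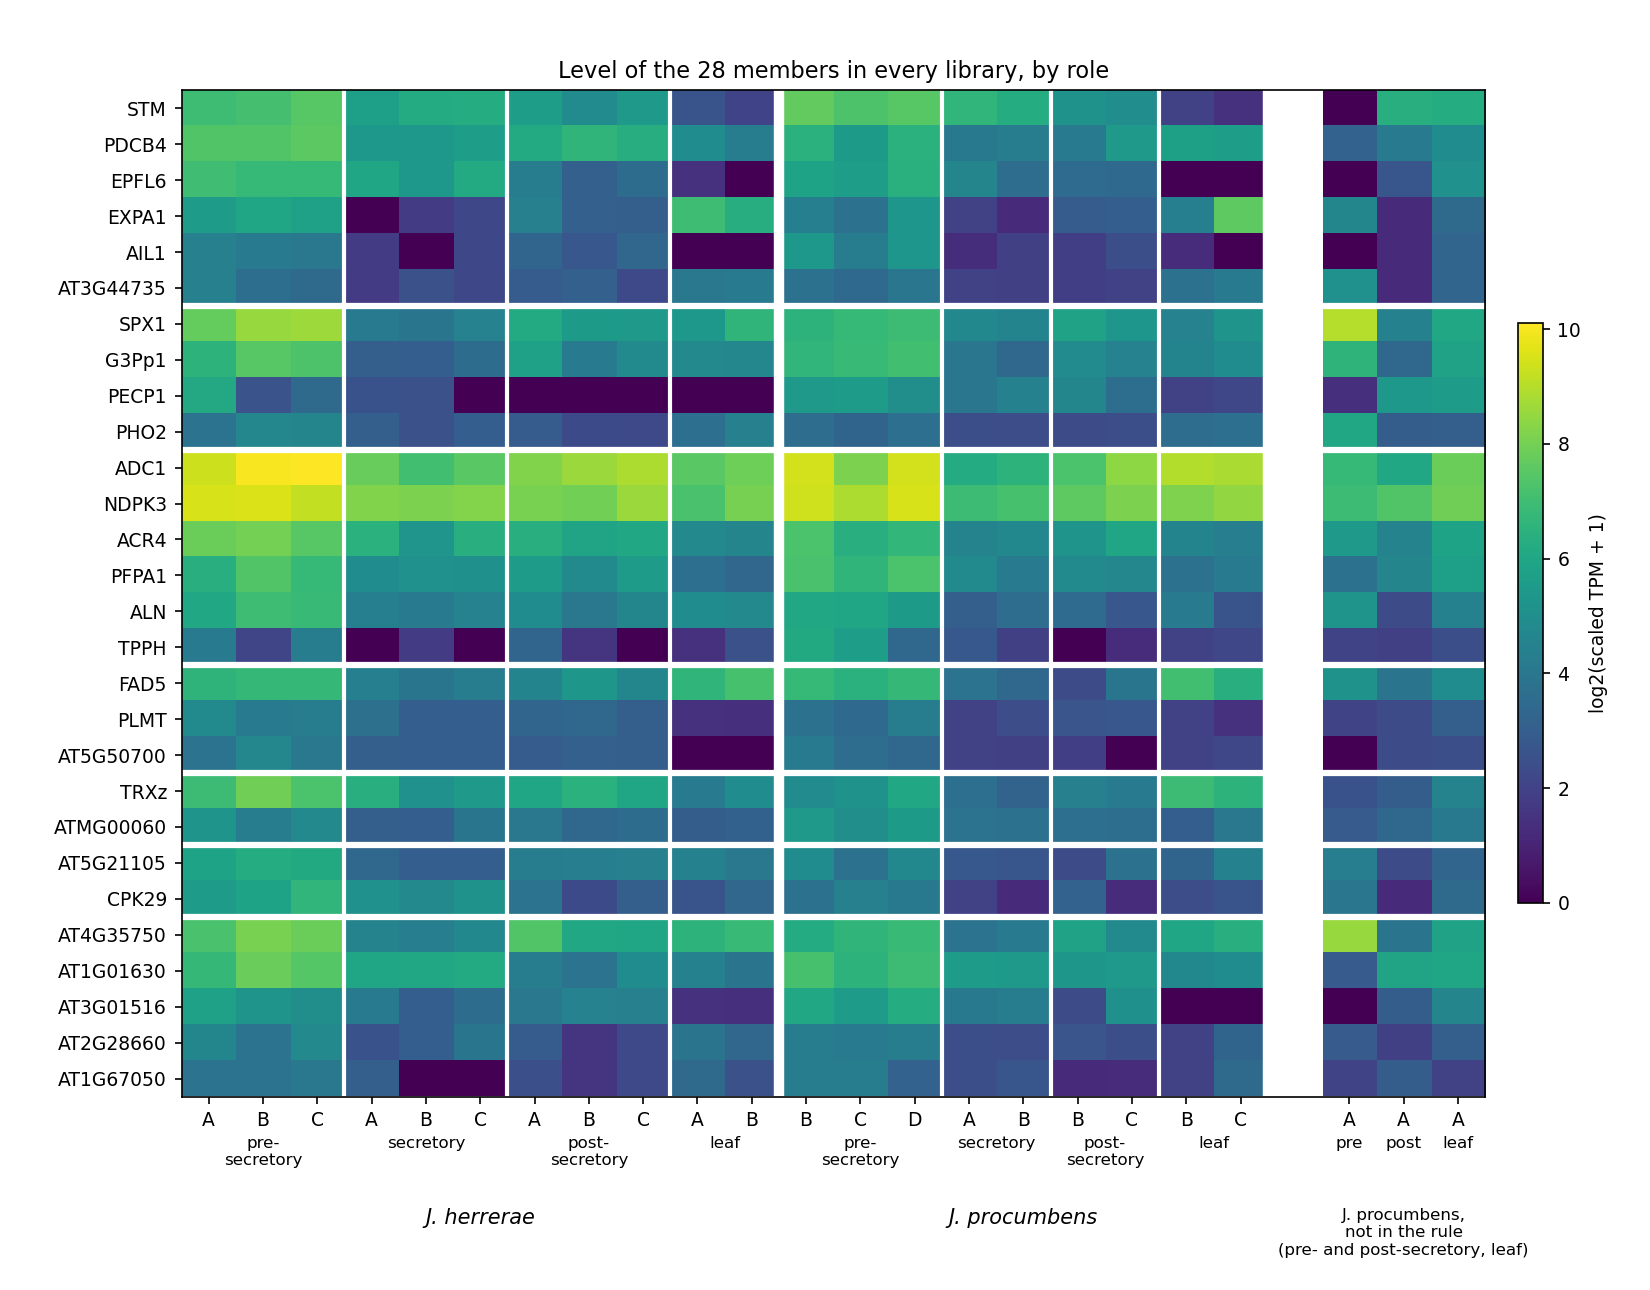
Heat map of log2(scaled TPM + 1) for the 28 members (rows, grouped by role with white lines between groups) in all 23 libraries (columns, by species, stage and replicate letter; the 3 J. procumbens libraries outside the rule are at the right). Pre-secretory columns are brighter than all later nectary columns of the same species in 25 rows for J. herrerae and 26 for J. procumbens, and leaf values range from 0 to 491 scaled TPM, the highest being ADC1 in J. procumbens.

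Among developmental regulators, STM stood highest. Its scaled TPM was 125, 139 and 178 in J. herrerae pre-secretory libraries, 51, 73.9 and 75.5 in secretory, 49.2, 28.8 and 42.2 in post-secretory, and 5.17 and 3.08 in leaf libraries. In J. procumbens STM was at 205, 156 and 178 before secretion, 98.7 and 75.6 in the secretory stage, 34.9 and 30.3 after it, and 2.83 and 1.72 in leaves. No stage overlapped the next in either species, and all leaf libraries were lowest. Its later nectary level stayed above leaf by 3.37 ± 0.24 (SE) on the log2 scale in J. herrerae (limma adjusted p = 1.07e-07) and by 4.07 ± 0.25 in J. procumbens (adjusted p = 2.04e-08).

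EPFL6 had the same order of stages. It was at 128, 108 and 108 scaled TPM before secretion in J. herrerae, 60.7, 40.5 and 71.9 during it, 17.9, 7.67 and 11 after it, and 1.72 and 0 in leaves. In J. procumbens it was at 57.6, 49.9 and 84.1 before secretion, 23.6 and 11.2 during it, 10.7 and 10.1 after it, and listed at 0 in both leaf libraries. AIL1, an AP2-type factor related to AINTEGUMENTA, was at 20.3, 16.6 and 15.5 before secretion in J. herrerae and at 40.8, 18.6 and 38.7 in J. procumbens. AIL1 did not exceed 9.18 in any later nectary library of J. herrerae or 4.33 in J. procumbens, and its leaf libraries held 0 to 1.42.

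The other growth genes had a leaf level as well. PDCB4, a callose-binding protein of plasmodesmata, the channels between plant cells, averaged 172.4 ± 15.8 scaled TPM before secretion in J. herrerae and 72.7 ± 24.7 in J. procumbens (SD, n = 3 each). EXPA1, an expansin that loosens cell walls, was at 47.3, 61.4 and 54.1 before secretion in J. herrerae and at 19.7, 12.8 and 38.7 in J. procumbens. Its secretory libraries held 0 to 3.59 in J. herrerae and 1.4 to 2.95 in J. procumbens, while leaves held 78.6 to 124 in J. herrerae and 19.8 and 191 in J. procumbens. AT3G44735, which encodes a phytosulfokine precursor, a growth peptide, averaged 14.1 ± 5.42 before secretion in J. herrerae and 12.4 ± 2.35 in J. procumbens (SD, n = 3 each), and its leaf means were 16.2 and 15.0.

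Of the phosphate genes, SPX1 encodes a sensor of phosphate status. In J. herrerae it was at 210, 378 and 392 scaled TPM before secretion, 17, 14.3 and 21.6 during it, 71.6, 44.1 and 42.2 after it, and 41.4 and 97.1 in leaves. In J. procumbens it was at 91.4, 108 and 121 before secretion, 25 and 22.4 during it, 56.3 and 38.9 after it, and 21.2 and 36.2 in leaves. G3Pp1, a glycerol-3-phosphate transporter, was at 91.3, 181 and 155 before secretion in J. herrerae, 7.28, 7.15 and 10.8 during it, 53.7, 17.3 and 27.5 after it, and 25.9 and 24.7 in leaves. In J. procumbens G3Pp1 was at 101, 114 and 131 before secretion, 14.7 and 9.8 during it, 28.2 and 21.6 after it, and 22.6 and 29.3 in leaves. For both genes the secretory libraries were below the post-secretory ones, without overlap, in both species.

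PECP1, a phosphatase of phosphoethanolamine and phosphocholine, owed its J. herrerae mean mostly to 1 library, with 67.6, 4.98 and 10.3 scaled TPM before secretion. It was at 0 to 4.85 in the secretory libraries of J. herrerae and listed at 0 in its post-secretory and leaf libraries. Without J. herrerae pre-secretory A, PECP1 was no longer a member. In J. procumbens PECP1 was at 42.2, 45.7 and 30.7 before secretion, 14.7 and 21 during it, 24.1 and 11.5 after it, and 2.83 and 3.45 in leaves. PHO2, a ubiquitin-conjugating enzyme that limits phosphate uptake, was low throughout, averaging 20.5 ± 6.13 before secretion in J. herrerae and 10.6 ± 1.81 in J. procumbens (SD, n = 3 each). Its leaf means of 16.1 and 11.7 were near those.

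A list of 25 phosphate starvation genes, 19 of them in the table, was drawn up after these members were seen and so supports nothing. Of its genes, 13 passed the level step, and 9 of these, with the 4 members among them, were higher before secretion in all 4 differences. Of all 7611 loci past that step, 1085 were. Some listed genes went the other way in J. herrerae, with higher means after secretion than before it. The differences, before minus after, were -1.94 for PAP17, -1.05 for MGD3, -1.04 for RNS1 and -1.03 for PAP10. The rest differed in how near they came. SPX2 met all 4 differences but averaged only 4.62 scaled TPM before secretion in J. procumbens, and SPX3 missed in J. herrerae, where it was 0.87 lower after secretion than before. PPsPase1, a pyrophosphatase, averaged 710 scaled TPM before secretion in J. herrerae, against 46.8 during it and 101 after it, and missed in J. procumbens, where its post-secretory mean was 0.17 lower. PHR1, the factor that switches the response on, was not higher before secretion: its differences ran from -1.20 to 0.07.

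ADC1, which makes agmatine from arginine for polyamines, and NDPK3, a nucleoside diphosphate kinase, had the highest levels of the members before secretion. ADC1 was at 649, 1030 and 1110 scaled TPM before secretion in J. herrerae, 216, 131 and 183 during it, 291, 382 and 470 after it, and 183 and 236 in leaves. In J. procumbens it was at 686, 280 and 682 before secretion, 73.7 and 91 during it, 152 and 335 after it, and 491 and 455 in leaves. Pre-secretory C of J. procumbens thus lay below 1 post-secretory library and both leaf libraries. NDPK3 averaged 690.3 ± 94.4 before secretion in J. herrerae and 617.4 ± 137 in J. procumbens (SD, n = 3 each), and its other group means lay between 131.1 and 320.2.

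Other metabolic members were lower. PFPA1, a subunit of the pyrophosphate-dependent phosphofructokinase of glycolysis, averaged 118.4 ± 43.3 scaled TPM before secretion in J. herrerae and 132.3 ± 29.4 in J. procumbens (SD, n = 3 each), against 10.7 and 15.0 in leaves. ACR4, an ACT domain repeat protein, averaged 221.9 ± 38.2 before secretion in J. herrerae and 112.5 ± 36.5 in J. procumbens. ALN, the allantoinase of purine breakdown, averaged 101.5 ± 32.6 in J. herrerae and 56.2 ± 10.8 in J. procumbens. TPPH, a trehalose-6-phosphate phosphatase, was uneven among libraries, with 16.9, 3.32 and 18 before secretion in J. herrerae and 70.3, 48.5 and 9.34 in J. procumbens.

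Of the lipid genes, FAD5, which desaturates palmitate in plastid lipids, had a similar level in both species before secretion. It was at 94.6, 105 and 106 scaled TPM in J. herrerae and at 108, 87.1 and 107 in J. procumbens. It was at 14.3 to 19.4 in secretory and 22.4 to 40.3 in post-secretory libraries of J. herrerae, at 9.8 to 13.3 and 4.02 to 14.4 in those of J. procumbens, and at 79.3 to 142 in the 4 leaf libraries. The pre-secretory and leaf libraries of FAD5 overlapped in both species, and all later nectary libraries were lower. PLMT, which methylates phospholipid head groups toward phosphatidylcholine, averaged 20.6 ± 5.66 before secretion in J. herrerae and 13.8 ± 4.45 in J. procumbens. AT5G50700, a hydroxysteroid dehydrogenase of oil bodies, averaged 17.9 ± 6.08 in J. herrerae and 12.5 ± 3.89 in J. procumbens (SD, n = 3 each).

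The remaining members act in organelles, signalling and redox, or have no name used here. TRXz, a plastid thioredoxin of the plastid RNA polymerase complex, was at 122, 241 and 152 scaled TPM before secretion in J. herrerae, 82.5, 33.4 and 43.1 during it, 62.6, 86.3 and 62.4 after it, and 17.2 and 29.3 in leaves. In J. procumbens TRXz was at 28.1, 34.2 and 65.4 before secretion, 11.8 and 8.4 during it, 20.1 and 17.3 after it, and 120 and 91.4 in leaves. Leaves were thus lowest for TRXz in J. herrerae and highest in J. procumbens. ATMG00060, part of the mitochondrial nad5 gene of respiratory complex I, averaged 27.1 ± 9.53 before secretion in J. herrerae and 39.7 ± 7.17 in J. procumbens. CPK29, a calcium-dependent protein kinase, averaged 68.6 ± 28.1 in J. herrerae and 16.2 ± 3.67 in J. procumbens. AT5G21105, an ascorbate oxidase of the cell wall, averaged 67.8 ± 9.55 in J. herrerae and 22.6 ± 8.68 in J. procumbens (SD, n = 3 each). The 5 members without a name averaged 14.1 to 214.7 before secretion in J. herrerae and 14.95 to 118.8 in J. procumbens.

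**Figure D2:**
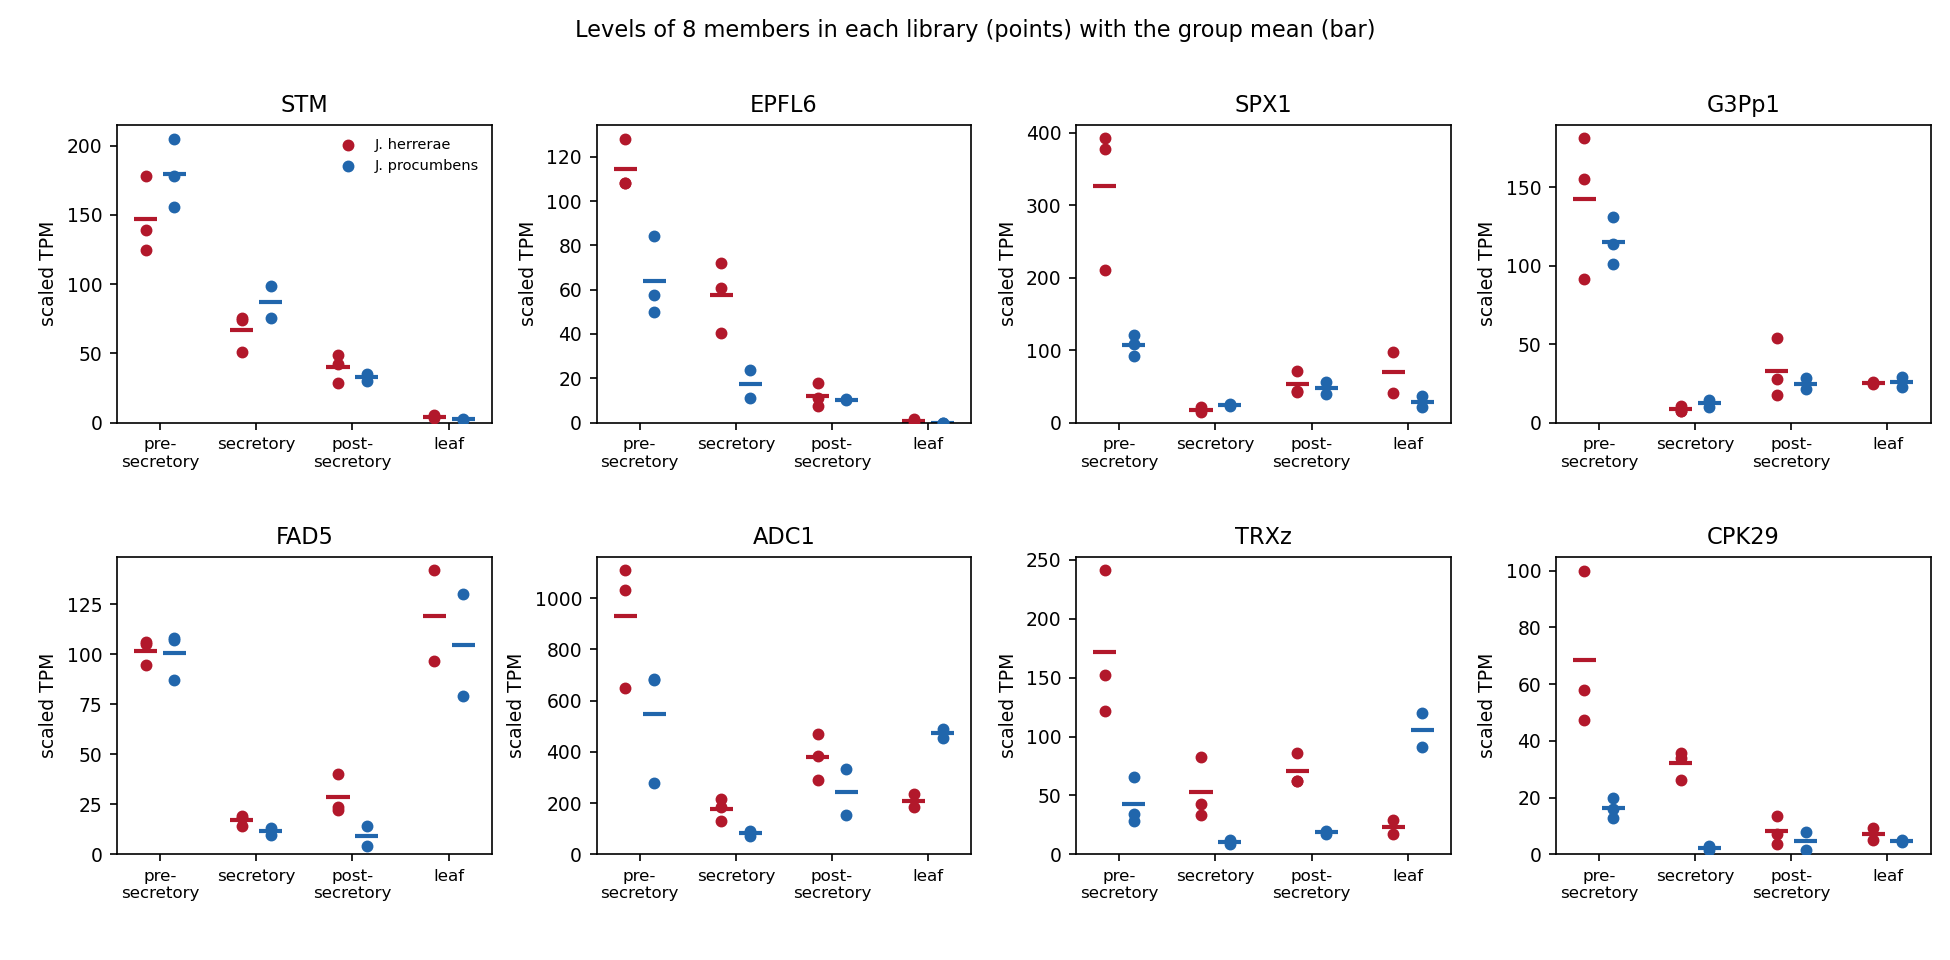
Scaled TPM (linear axis) of 8 members in each of the 20 libraries used by the rule, by stage and tissue; points are libraries and bars are group means, with J. herrerae left of J. procumbens. STM and EPFL6 step down through the stages to near 0 in leaves, FAD5 is at 79.3 to 142 in leaves and at 87.1 to 108 before secretion, and TRXz in leaves is highest in J. procumbens and lowest in J. herrerae.

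Against leaf, which the rule did not use, most members were higher in the pre-secretory nectary. In J. herrerae 21 of the 28 members were higher at an adjusted p under 0.05 and 0 were lower, against 41.2% of the 13072 tested loci called higher and 16.1% called lower (57.3% in either direction). In J. procumbens 18 were higher, against 38.1% of loci, and 1 was lower, against 18.3% (56.4% in either direction). Every pre-secretory library was above every leaf library for 22 members in J. herrerae, against 47.1% of loci, and for 18 in J. procumbens, against 44.9%. The median log2 difference over the members was 2.34 in J. herrerae and 1.74 in J. procumbens, beside 0.50 and 0.43 over all tested loci. Median-ratio rescaling, which sets the median locus near no change, moved these medians over all loci to -0.02 and 0, and then 20 members were higher and 1 lower in J. herrerae, and 16 higher and 2 lower in J. procumbens. All loci were then called higher in 16.1% and lower in 25.7% of cases in J. herrerae, and in 18.4% and 24.5% in J. procumbens. The rule picked high pre-secretory means, so an excess on this side follows in part from the choice and is given as a description, and the adjusted p-values of single members are not free of that choice either.

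STM was higher before secretion than in leaf by 4.87 ± 0.26 (SE) in J. herrerae (limma adjusted p = 1.13e-08) and by 5.79 ± 0.26 in J. procumbens (adjusted p = 7.66e-10). EPFL6 was higher by 6.13 ± 0.41 in J. herrerae (adjusted p = 6.53e-08), and in J. procumbens, where leaves were listed at 0, its adjusted p was 3.52e-08. PFPA1 was higher by 3.30 ± 0.31 in J. herrerae and by 3.05 ± 0.31 in J. procumbens (adjusted p = 8.43e-07 and 1.27e-06). ACR4, PLMT, SPX1, G3Pp1, ALN, NDPK3, CPK29 and AT1G01630 were also higher in both species, as were ATMG00060, PECP1, AIL1, AT3G01516 and AT5G50700, of which the last 4 were listed at 0 in every leaf library of at least 1 species. Of the rest, ADC1, PDCB4, TRXz, AT5G21105 and AT4G35750 were higher in J. herrerae, and TPPH and AT2G28660 in J. procumbens.

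Another 5 members were called against leaf in neither species: EXPA1, FAD5, PHO2, AT3G44735 and AT1G67050. EXPA1 differed by -0.86 ± 0.77 in J. herrerae and by -1.49 ± 0.77 in J. procumbens (SE; adjusted p = 0.362 and 0.112). FAD5 differed by -0.20 ± 0.37 in J. herrerae and by -0.02 ± 0.37 in J. procumbens (adjusted p = 0.673 and 1). These sizes do not show equal levels, and the EXPA1 leaf libraries of J. procumbens, at 19.8 and 191, lay far apart.

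The species differed in the size of this contrast for 4 members, all with the larger value in J. herrerae, against 8.83% of loci called in that direction, 5.13% in the other and 14% in either. TRXz was higher before secretion than in leaf by 2.82 ± 0.40 in J. herrerae and lower in J. procumbens, with a difference of -1.37 ± 0.40 (SE). The lower call in J. procumbens was lost without leaf B of that species (adjusted p = 0.0763), with the values as deposited and with all 23 libraries. The difference between the species was 4.19 ± 0.56 (adjusted p = 0.000206), and its call held in all 20 fits with 1 library left out. PDCB4 gave 2.83 ± 0.33 in J. herrerae and 0.46 ± 0.33 in J. procumbens, and ADC1 gave 2.12 ± 0.40 and 0.10 ± 0.40 in the same order. The species differences were 2.37 ± 0.47 for PDCB4 (adjusted p = 0.00325), 2.02 ± 0.56 for ADC1 (adjusted p = 0.0268) and 2.52 ± 0.57 for AT5G50700 (adjusted p = 0.00846), whose J. herrerae leaves were listed at 0. In leaf itself, TRXz, AT5G50700, ADC1 and PDCB4 were the 4 members lower in J. herrerae than in J. procumbens, with differences of -2.17 ± 0.44, -2.05 ± 0.45, -1.18 ± 0.44 and -1.08 ± 0.36 (adjusted p = 0.00113, 0.00207, 0.0454 and 0.0292). Leaf libraries A and B of J. herrerae were all below B and C of J. procumbens for these 4. They were named because they were called lower, as 20.7% of all loci were, so this only describes them. For AT5G50700 the values were 0 and 0 against 2.83 and 3.45 scaled TPM, near the floor. The ADC1 call between species was lost under 5 of the 20 fits with 1 library left out, the leaf call of ADC1 under 9 and that of PDCB4 under 3. With the values as deposited, under which the median locus differed by -0.54, 1 member had a larger and 3 a smaller contrast in J. herrerae.

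**Figure D3:**
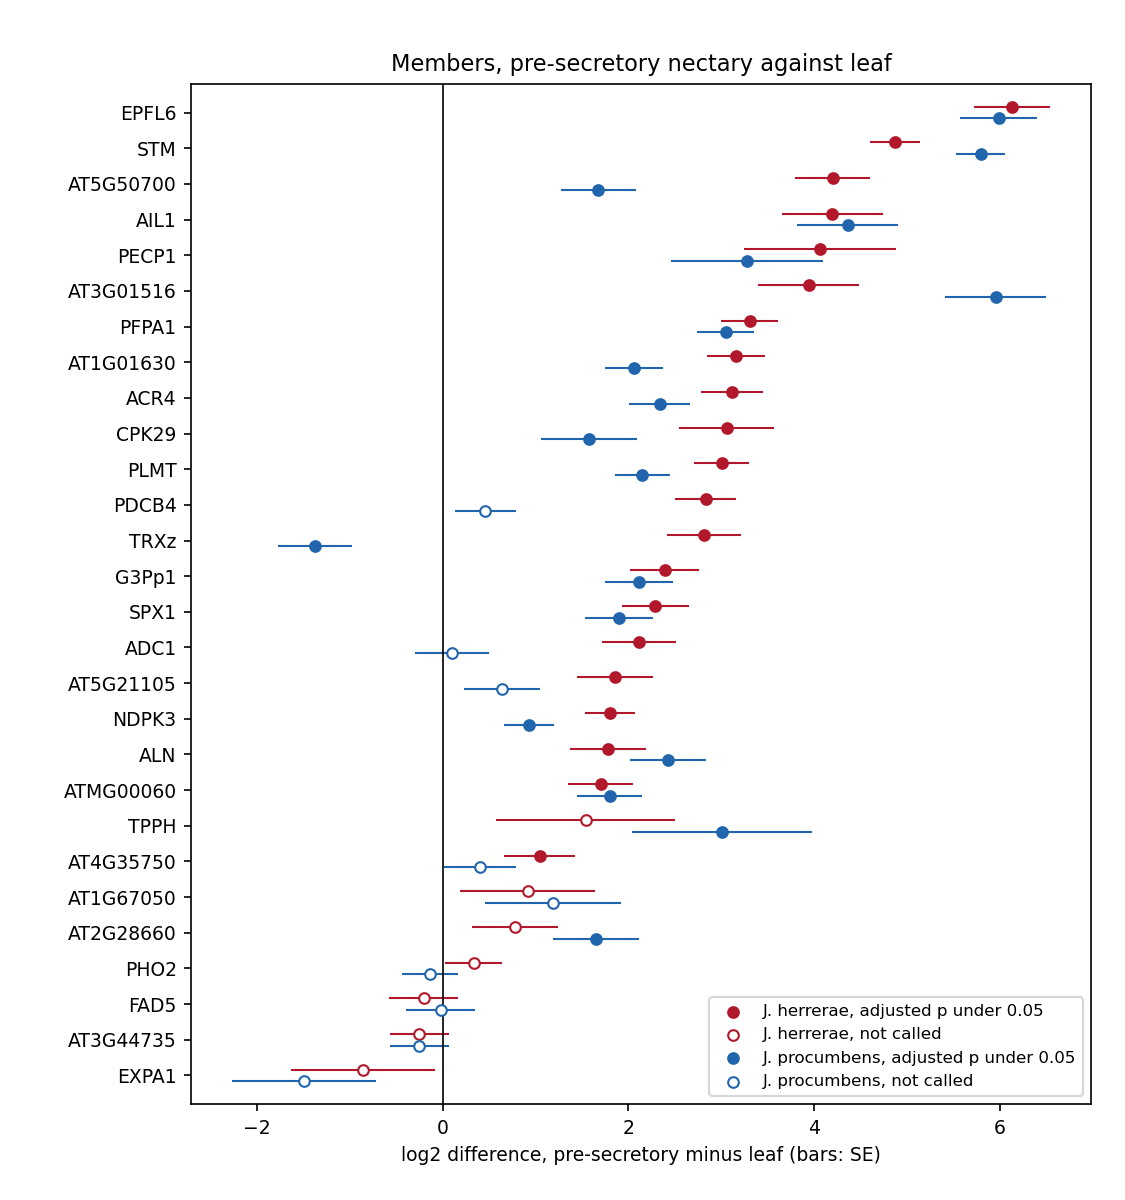
Log2 difference, pre-secretory nectary minus leaf, for each member (points, with bars for the SE) in J. herrerae (upper point of each row) and J. procumbens (lower point); filled points had an adjusted p under 0.05. Differences of EPFL6 and AT3G01516 in J. procumbens and of AIL1, AT5G50700 and PECP1 in J. herrerae are against leaves listed at 0 and depend on the added 1; TRXz lies at 2.82 in J. herrerae and at -1.37 in J. procumbens.

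The 2 later stages were not alike for the members, and the rule used both stages but not their contrast. After secretion 8 members were higher than during it in J. herrerae, against 46.1% of loci, and 4 were lower, against 14.8% (60.9% in either direction). In J. procumbens 4 were higher, against 31.1% of loci, and 1 was lower, against 8.74% (39.8% in either direction). Higher calls were a smaller share of the members than of all loci in both species, and the lower calls in J. herrerae were near the background. The median difference of the members was 0.42 in J. herrerae and 0.20 in J. procumbens, beside 0.54 and 0.38 over all loci. The rule kept post-secretory means at least 1 below pre-secretory ones, which leaves out loci that rose again to near that level. Fewer higher calls and a lower median thus follow in part from the choice and only describe the members. The adjusted p-values of single members in this contrast are not free of that choice either.

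STM was lower after secretion than during it in both species, with differences of -0.73 ± 0.24 (SE) in J. herrerae and -1.38 ± 0.29 in J. procumbens (limma adjusted p = 0.0139 and 0.00165). In J. herrerae the call of STM was lost without secretory B, secretory C or post-secretory B, with adjusted p up to 0.0834. EPFL6 differed by -2.19 ± 0.37 in J. herrerae (adjusted p = 0.000132) and by -0.60 ± 0.45 in J. procumbens (adjusted p = 0.312). CPK29, at 34, 26.2 and 35.9 scaled TPM in J. herrerae secretory libraries, was at 13.4, 3.84 and 7.34 after secretion, and differed by -1.97 ± 0.46 (adjusted p = 0.00167). AT1G01630 differed by -1.73 ± 0.28 (adjusted p = 8.3e-05), with 17.9, 13.4 and 29.4 after secretion and 60.7 to 71.9 during it. In J. herrerae EPFL6, CPK29 and AT1G01630 were thus lower at each step, without overlap of stages.

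The opposite order, lowest during secretion and higher after it, was that of SPX1 and G3Pp1 in J. herrerae. SPX1 was higher after secretion than during it by 1.50 ± 0.33 and G3Pp1 by 1.72 ± 0.33 (SE; adjusted p = 0.000978 and 0.000387). In J. procumbens the differences were 0.95 ± 0.40 and 0.98 ± 0.41 (adjusted p = 0.0678 and 0.0661). ADC1 was higher in both species, by 1.11 ± 0.36 in J. herrerae and by 1.45 ± 0.44 in J. procumbens (adjusted p = 0.0142 and 0.016), and so was AT4G35750, by 1.93 ± 0.35 and 1.34 ± 0.42 (adjusted p = 0.000214 and 0.0203). EXPA1, AIL1, PDCB4 and AT5G21105 were higher in J. herrerae, and NDPK3 and ACR4 in J. procumbens. Values after secretion still lay at least 1 below those before it, which the rule fixed.

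These post-secretory results depend on the scaling and on few libraries. With 1 library left out, the ADC1 call was lost in J. herrerae without secretory B or post-secretory C (adjusted p up to 0.0665) and in J. procumbens without secretory A or post-secretory C (up to 0.199), and in both under median-ratio rescaling. In J. procumbens the ACR4 call was lost in 12 of 20 such fits (adjusted p up to 0.325), that of NDPK3 without secretory A, secretory B or post-secretory C (up to 0.27), and that of AT4G35750 without secretory A or post-secretory B (up to 0.202). Of the 5 J. procumbens calls, that of STM alone held in every one of these fits. In J. herrerae the EXPA1 call was lost without secretory A or post-secretory A (adjusted p up to 0.071) and that of PDCB4 without secretory B or post-secretory B (up to 0.0706), while the calls of SPX1, G3Pp1, CPK29, EPFL6, AT1G01630, AIL1, AT5G21105 and AT4G35750 held in all 20 fits. With median-ratio rescaling, the median locus differed by 0.13 in J. herrerae and 0.06 in J. procumbens. Then 5 members were higher and 6 lower in J. herrerae, against 33% and 25.5% of loci. In J. procumbens 0 were higher and 1 lower, against 21.4% and 16.8%. With the values as deposited, 11 were higher and 3 lower in J. herrerae, where the median locus differed by 0.86. In J. procumbens, 5 members were called, against 1 without secretory A and 3 without secretory B. The leaf marker list moved with the same contrast: 46 photosynthesis genes summed to 27200 to 48200 scaled TPM after secretion in J. herrerae and to 1230 to 2950 during it, with 3 of them at 0 in each post-secretory library and 4 or 5 in each secretory one. In J. procumbens the sums were 10500 and 15300 after secretion and 1800 and 1890 during it. Vascular markers, 8 in the table, summed to 125 to 136 after secretion and to 31.5 to 53.9 during it in J. herrerae. The part of these markers in the members' result was not tested.

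The species differed in this contrast for 2 members, both lower in J. herrerae, against 8.77% of loci called that way, 9.95% the other way and 18.7% in either. AT1G01630 differed between the species by -1.64 ± 0.44 (SE) and CPK29 by -2.58 ± 0.72 (limma adjusted p = 0.0173 and 0.0221). Leaving out J. procumbens secretory B left 0 calls among the members. The AT1G01630 call was also lost without J. procumbens secretory A, and that of CPK29 without J. herrerae post-secretory B. Without J. procumbens post-secretory B both were lost and 1 other member was called, and without its post-secretory C 4 members were called.

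**Figure D4:**
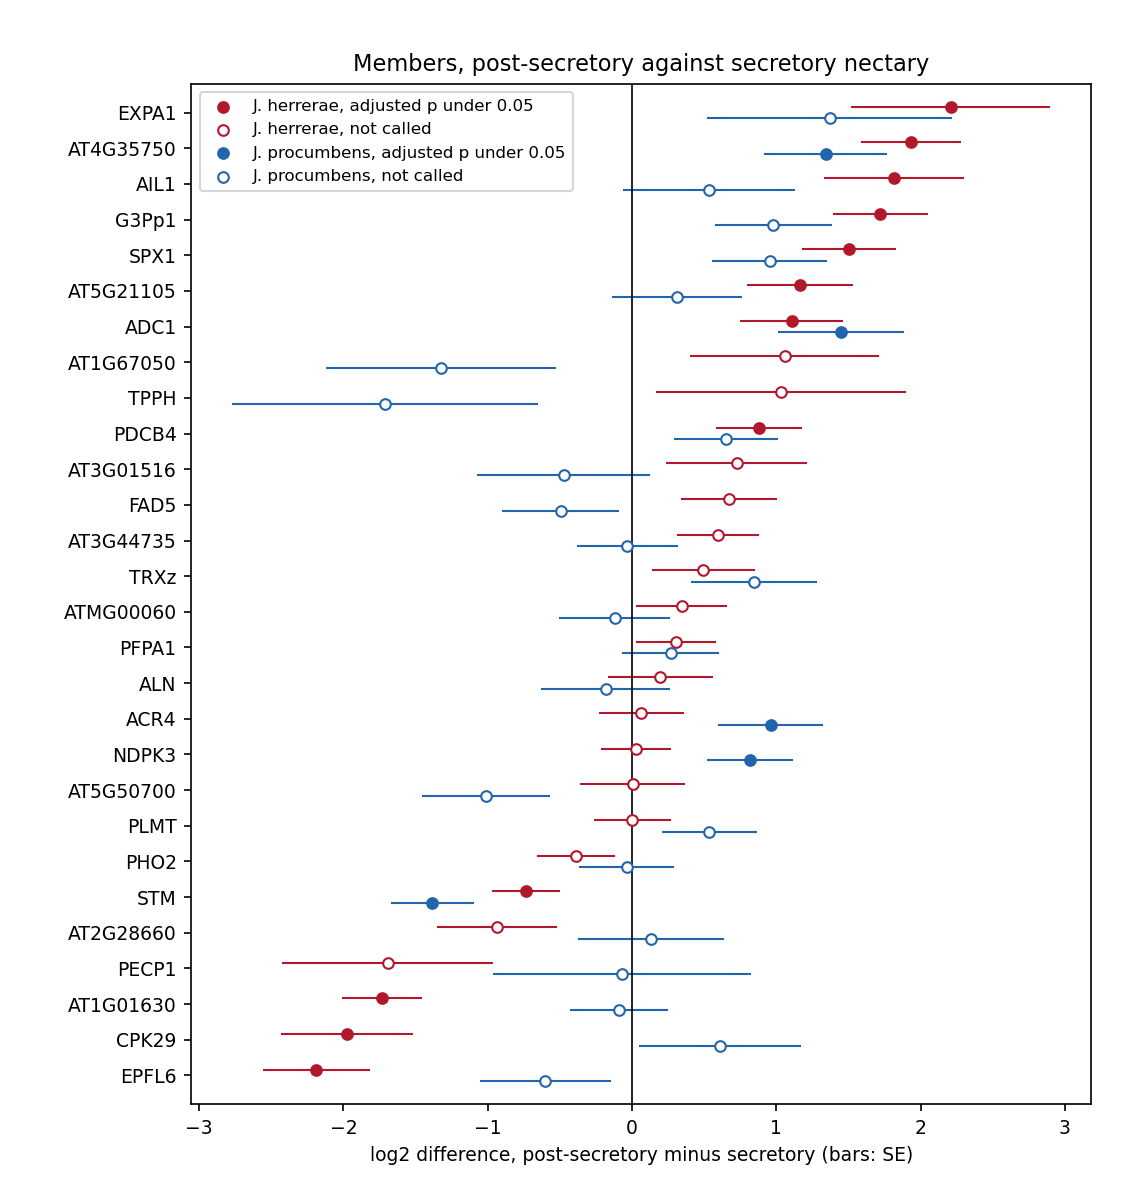
Log2 difference, post-secretory minus secretory nectary, for each member (points, with bars for the SE) in J. herrerae (upper point of each row) and J. procumbens (lower point); filled points had an adjusted p under 0.05. STM lies below 0 and ADC1 and AT4G35750 above 0 in both species, and EPFL6, CPK29 and AT1G01630 are the lowest points of J. herrerae.

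How low the members went can be set against leaf. The mean of the 2 later stages was higher than leaf for 12 members in J. herrerae, against 43% of loci, and lower for 6, against 16% (59% in either direction). In J. procumbens 6 members were higher, against 40.4% of loci, and 10 were lower, against 19.7% (60.2% in either direction). Median-ratio rescaling gave 9 higher and 11 lower in J. herrerae, against 18.9% and 26.9% of loci. In J. procumbens it gave 3 higher and 11 lower, against 25.2% and 29%. With the values as deposited, 7 were higher and 9 lower in J. herrerae, and 6 higher and 8 lower in J. procumbens. The median locus then differed by 0.03 in J. herrerae and by 0.5 in J. procumbens. The rule asks for low later levels, so a surplus of lower calls follows in part from it. The adjusted p-values of single members are not free of it either.

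FAD5 was lower in the later nectary than in leaf, with differences of -2.37 ± 0.33 (SE) in J. herrerae and -3.30 ± 0.35 in J. procumbens (limma adjusted p = 2.98e-05 and 2.22e-06). EXPA1 was lower too, with differences of -4.22 ± 0.69 in J. herrerae and -3.68 ± 0.73 in J. procumbens (adjusted p = 0.000114 and 0.000481). PHO2, AT3G44735 and AT4G35750 were lower in both species too. FAD5, EXPA1, PHO2 and AT3G44735 were thus not called against leaf before secretion and were below leaf later, in both species. STM, EPFL6, AIL1, PLMT and AT3G01516 were higher than leaf in both species at the later stages. In J. procumbens the AIL1 call, at an adjusted p of 0.0482, was lost in 14 of 20 fits with 1 library left out, and that of PLMT, at 0.0312, without secretory B, post-secretory C or leaf C. PDCB4 and TRXz were higher than leaf in J. herrerae, by 1.32 ± 0.30 and 1.34 ± 0.36, and lower in J. procumbens, with differences of -1.17 ± 0.31 and -2.85 ± 0.38 (adjusted p = 0.00134, 0.00457, 0.00441 and 1.41e-05). In J. herrerae the call of PDCB4 was lost without leaf B (adjusted p = 0.0501), that of TRXz without leaf A (0.0925), and that of AT4G35750 without leaf B (0.092).

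Between the species, the counts of members called higher in J. herrerae nectaries were not far above the background. With the values as deposited, the prevailing direction turned before and during secretion but not after it. Before secretion 8 members were higher in J. herrerae, against 23.9% of loci, and 0 were lower, against 23.8% (47.7% in either direction). In the secretory stage 9 were higher, against 20.8%, and 1 was lower, against 27% (47.8% in either direction). After secretion 8 were higher, against 22.4%, and 2 were lower, against 23.4% (45.8% in either direction). In leaf 2 members were higher, against 15.5% of loci, and 4 were lower, against 20.7% (36.1% in either direction). In the nectary fewer members were lower than the background share. The rule used the nectary values of both species and asked for a minimum level before secretion in each. That leaves out loci very low in either species at that stage. The shortfall may thus follow in part from the choice and only describes the members. With the values as deposited, more members were lower before and during secretion, as given below. The adjusted p-values of single members in the nectary are not free of that choice either. Leaf values were not used by the rule.

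TRXz and PDCB4 were higher in J. herrerae at all 3 nectary stages. TRXz differed by 2.02 ± 0.36 before secretion, 2.20 ± 0.40 during it and 1.85 ± 0.40 after it (SE; limma adjusted p = 0.000248, 0.000315 and 0.0015). PDCB4 differed by 1.29 ± 0.30, 1.30 ± 0.33 and 1.53 ± 0.33 in the same order (adjusted p = 0.00202, 0.00416 and 0.0015). CPK29 differed by 1.96 ± 0.46 before secretion and by 3.41 ± 0.51 during it (adjusted p = 0.00237 and 5.51e-05), and by 0.83 ± 0.51 after it (adjusted p = 0.201). SPX1 differed by 1.55 ± 0.33 before secretion (adjusted p = 0.00103) and by -0.43 ± 0.36 during it (adjusted p = 0.358). AT5G21105, AT4G35750, ACR4 and PHO2 were the other members higher before secretion, with the call lost in 2 of 20 fits with 1 library left out for AT4G35750 and in 3 for PHO2.

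PECP1 went the other way, with differences of -2.52 ± 0.82 during secretion and -4.15 ± 0.82 after it (SE; adjusted p = 0.0183 and 0.000723). It was listed at 0 in the J. herrerae post-secretory libraries, so the size of the second depends on the added 1. The call during secretion was lost without J. herrerae secretory C or J. procumbens secretory A or B, and the PDCB4 call after secretion without J. procumbens post-secretory B (adjusted p = 0.0555). Which direction prevailed among the species calls depends on the scaling. With the values as deposited, the median locus differed by -0.70 before secretion, -0.84 during it, -0.48 after it and -0.16 in leaf. Then 2 members were higher and 7 lower before secretion, and likewise during it. After secretion 4 were higher and 2 lower, and in leaf 0 were higher and 2 lower. None of the species calls as reported changed sign under that scaling or under median-ratio rescaling. Median-ratio rescaling gave 3 higher and 3 lower in leaf, against 20.7% and 18.3% of loci. Leaving out J. procumbens secretory A or secretory B gave 6 calls in the secretory stage in place of 10, and leaving out its post-secretory B gave 6 after secretion in place of 10. In leaf, leaving out J. procumbens leaf B gave 3 calls in place of 6.

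Lists of 41 gene groups (1088 loci, 814 in the table) held 3 members: STM among 24 measured meristem, boundary and organ polarity factors, EXPA1 among 25 expansins and xyloglucan endotransglucosylases, and FAD5 among 20 genes of plastid fatty acid synthesis. No member belonged to the lists of cyclins and CDKs (22 in the table), DNA replication (42), histones (35) or starch synthesis (19). Members were 28 of all 7611 loci past the level step. Of the 11 genes of the expansin list that passed the level step, 6 were at least 1 higher before secretion than during it in J. herrerae and 7 in J. procumbens, beside 1194 and 1323 of all 7611 loci past that step. Relative to the post-secretory stage these were 4 and 3 genes, beside 536 and 620 loci. Of 28 histones past that step, 13 in J. herrerae and 20 in J. procumbens were at least 1 higher before secretion than during it. Of 22 DNA replication genes these were 7 and 16, of 6 cyclins and CDKs 2 and 4, and of 13 starch genes 4 and 3. Relative to the post-secretory stage they were 0 and 13 histones, 0 and 13 replication genes, 0 and 1 cyclins and CDKs, and 2 and 3 starch genes. The listed genes nearest to the members were SWEET7, SPT, a carpel factor, and AGL6, a floral MADS-box factor, whose smallest differences were 0.99, 0.97 and 0.77.

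In the expansin list 7 of the 25 tested genes were higher before secretion than in leaf and 9 lower in J. herrerae, and 4 higher and 10 lower in J. procumbens. In the meristem list 12 of 24 were higher and 3 lower in J. herrerae, and 11 higher and 6 lower in J. procumbens. In the fatty acid list 5 of 20 were higher and 4 lower in J. herrerae, and 3 higher and 6 lower in J. procumbens. Of all tested loci, 41.2% were called higher and 16.1% lower in J. herrerae, and 38.1% and 18.3% in J. procumbens. The meristem list's higher calls were not far from these shares, and nothing is read from the counts of these lists.

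The pre-secretory libraries themselves were not uniform for the members. J. procumbens pre-secretory C was the lowest of its 3 libraries for 18 members, and their summed level was 2078 scaled TPM there, against 3028 in B and 3067 in D. That library correlated with the secretory libraries at 0.953, against 0.875 for B and 0.818 for D. In J. herrerae, pre-secretory A was lowest for 16 members, with a sum of 3390, against 4527 in B and 4209 in C. The sums of later nectary libraries ran from 896.2 to 1474 in J. herrerae and from 589.1 to 1051 in J. procumbens, and those of leaf from 939.5 to 1167 in J. herrerae and 1343 and 1546 in J. procumbens. No library at a later stage reached a pre-secretory sum.

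The 3 J. procumbens libraries outside the rule differed from the libraries of the same label. In pre-secretory A, 21 of 28 members lay below the other 3 pre-secretory libraries, 3 within and 4 above, with a median difference of -2.03 on the log2 scale. STM, EPFL6, AIL1, AT3G01516 and AT5G50700 were listed at 0 there, while SPX1 was at 505, AT4G35750 at 375, PHO2 at 66 and AT3G44735 at 33.8 scaled TPM. In post-secretory A, 27 members lay below the pre-secretory libraries, and STM was at 79, above the 34.9 and 30.3 of post-secretory B and C. In leaf A, 27 members lay below the pre-secretory libraries and 25 above both secretory ones, with STM at 76.5 and EPFL6 at 33.8.

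With all 23 libraries in their labelled groups the rule found 27 loci, of which 16 were among the 28. STM and EPFL6 were among the 12 members lost. Against leaf, 19 members were then higher in J. herrerae and 1 in J. procumbens, where 0.879% of all loci were called in either direction. Median-ratio rescaling gave 16 loci, of which 14 were members, and the values as deposited gave 17, of which 12 were members. When each library was left out in turn the rule found 23 to 29 loci. AT1G01630, PFPA1, AT1G67050, EXPA1, FAD5, G3Pp1, ALN, NDPK3 and TPPH were the 9 members found in every one of these lists.

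**Figure D5:**
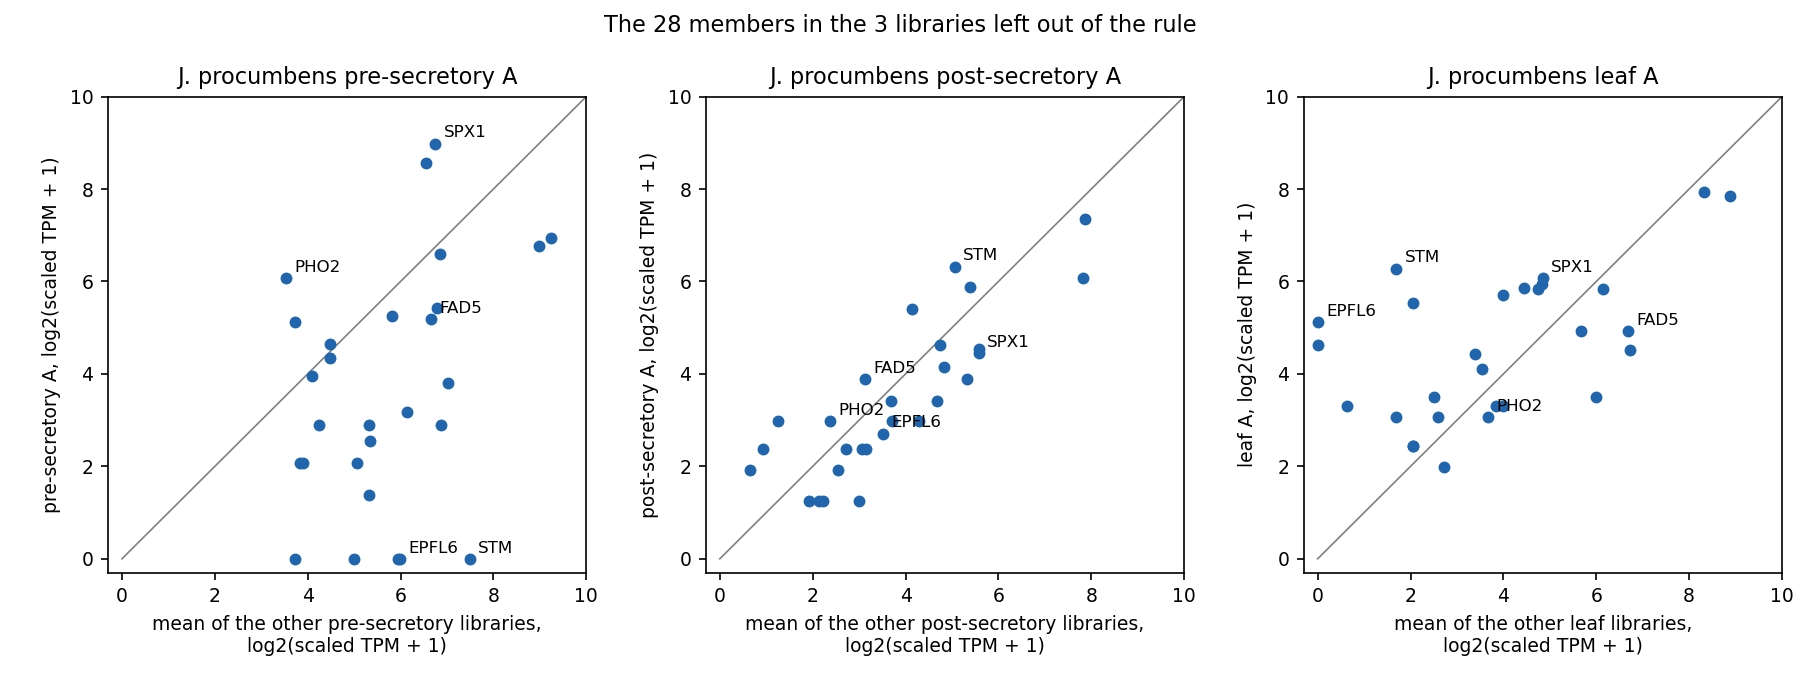
Level of the 28 members in each J. procumbens library outside the rule (vertical axis) against the mean of the other libraries with the same label (horizontal axis), both as log2(scaled TPM + 1), with the line of equality. In pre-secretory A most points lie below the line, with STM and EPFL6 at 0 and SPX1 and PHO2 above it, and in leaf A STM and EPFL6 lie far above it.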

How the data were processed

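Stranded mRNA libraries of nectaries and leaves were sequenced, per the labels. The submitters' processing notes name kallisto 0.46.1. The deposited table holds a score: the authors' TPM as whole numbers, 1 value for each of 13170 Arabidopsis loci. Which reference was used, and how Jaltomata transcripts were matched to loci and summed, is not given in the sources at hand. Rounding and summing blur low values and near-identical copies.

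From these values, 3 abundant loci were dropped, libraries were scaled to 1000000 and values were taken as log2(scaled TPM + 1), which understates differences of low loci. The 13072 loci with at least 1 in at least 2 libraries, all 28 members among them, were tested in limma 3.58.1 under R 4.3.3. The model gave each group its own mean and each locus 1 variance, let the prior variance follow the level, and adjusted p by Benjamini-Hochberg over all tested loci within each of 12 comparisons. Calls are at an adjusted p under 0.05. The steps were tested on simulated data. Python 3.11.15, pandas 2.3.3 and matplotlib 3.10.9 drew the figures.

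The members and gene lists were chosen with earlier results of these data known. The table pairs no names with loci: STM, EXPA1 and FAD5 were named in the lists, 20 members were named from general knowledge of the Arabidopsis gene once they were known, and 5 have no name here. The rule for naming genes covers members of those lists; the rest appear because every member is accounted for.

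Alternatives were a pseudocount of 0.1, no filter or a mean of at least 5, median-ratio rescaling, values as deposited, all 23 libraries, a replicate block, only the groups compared, and each library left out in turn. For the rule, a difference of 0.5 or 2 and a level of 5 or 50 were also tried.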

Additional observations from a re-analysis of the deposited data

Results flagged for a closer look

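J. procumbens pre-secretory A, which was outside the rule, stood far from the other 3 pre-secretory libraries on the log2 scale for 8 of 28 members, 6 of them low. Chance flags about 1 in 20 groups of this size, but that rate does not apply here. The rule chose the members for high values in the other 3 libraries, and every flag concerns the same library. The count is thus only a description. In that library STM was at 0 scaled TPM, against 156 to 205 in the others, EPFL6 at 0, against 49.9 to 84.1, and AT3G01516 at 0, against 45.7 to 74.7. AT1G01630 was at 6.44, against 92.8 to 143, PECP1 at 1.61, against 30.7 to 45.7, and AT2G28660 at 6.44, against 17.1 to 18.7. SPX1 was high at 505, against 91.4 to 121, and PHO2 at 66, against 8.56 to 12. In the same library the 46 photosynthesis markers summed to 256000 scaled TPM, against 1350 to 1630 in the others. Their part in the members' values was not tested.

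The contrast of pre-secretory nectary with leaf differed between J. herrerae and J. procumbens for 4 members, by limma's test of the difference: TRXz by 4.19, AT5G50700 by 2.522, PDCB4 by 2.372 and ADC1 by 2.015 on the log2 scale. The contrast of post-secretory with secretory nectary differed for CPK29, by -2.583, and AT1G01630, by -1.641.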

How the results depend on the processing

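With all 23 libraries, calls among the members numbered 19 in J. herrerae and 1 in J. procumbens for pre-secretory nectary against leaf, 6 and 0 for post-secretory against secretory, and 7 and 6 for the later nectary against leaf. They numbered 5 between species before secretion, 1 during it and 0 in leaf, and 0 for both species differences in a contrast. Median-ratio rescaling gave 1 call for post-secretory against secretory in J. procumbens, and the rule then found 16 loci. With the values as deposited that comparison gave 3 calls, the species comparison 6 after secretion and 2 in leaf, the species difference in post-secretory against secretory 0, and the rule 17 loci. Fitting only the groups compared gave 1 for that species difference. The rule found 145 loci at a difference of 0.5, 2 at 2, and 13 at a level of 50. NDPK3 in the later J. herrerae nectary against leaf turned to -0.019165 under median-ratio rescaling, from 0.58; the cause was not tested.

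With 1 library left out, calls ranged over 20 to 21 in J. herrerae and 15 to 20 in J. procumbens for pre-secretory nectary against leaf, 10 to 14 and 1 to 6 for post-secretory against secretory, and 14 to 19 and 11 to 16 for the later nectary against leaf. Between species they ranged over 6 to 12 before secretion, 6 to 11 during it, 6 to 10 after it and 3 to 7 in leaf, and over 3 to 5 and 0 to 4 for the differences in the 2 contrasts. A lone remaining library is assumed to vary like the other groups. Of 131 single calls, 120 held with the replicate block, 131 with a mean of at least 5, 126 without a filter, 121 with a pseudocount of 0.1, 113 after median-ratio rescaling, 114 with only the groups compared, 92 as deposited and 52 with all 23 libraries.

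Libraries with the same letter did not deviate together on average (mean r -0.00601, range -0.343 to 0.215 over 53 pairs). Pairs with different letters gave a mean of 0.00262. Deviations from means of so few libraries cannot show whether some letters shared a source. With the replicate block the counts were 21 and 19 for pre-secretory nectary against leaf, 13 and 4 for post-secretory against secretory, 18 and 13 for the later nectary against leaf, 10, 9, 8 and 5 between species, and 4 and 3 for the differences in contrast. Since TPM keeps no depth, the counting error of low members such as TPPH and PHO2 cannot be given.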
